A study of Mus musculus with 33 samples.

Results

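The data describe what happened to unmutated mouse embryonic stem cells (mESCs) when they were left to differentiate as embryoid bodies (EBs) for 8 days without retinoic acid (RA). The comparison used 6 of the 33 RNA-seq libraries of the series, chosen by their labels: 3 libraries of control mESCs and 3 libraries of control EBs. The same control clones, #1, #4 and #7, gave 1 library at each stage, so that n was 3 clones per stage. All 6 libraries carried the genotype label wild-type. The cells were E14TG2a, a mouse embryonic stem cell line that had been cleared of Mycoplasma before the study. Control clones had received the same Cas9 and puromycin resistance plasmids as the mutant clones, but with no guide RNA, and were picked after puromycin selection. Each clone was therefore grown from a picked colony and had passed through transfection, and no library of the untransfected line was used here. mESCs were grown on gelatin with serum and leukemia inhibitory factor (LIF), which holds them undifferentiated. EBs were formed from the same clones on non-adherent dishes without LIF and harvested on day 8, and neither group had been given RA. Each library held the RNA of a whole culture, so that fewer cells of a type and less RNA per cell cannot be told apart in any result. Libraries of Neil1 and Neil2 mutant mESCs and EBs, and of control EBs treated with RA, were used only in the comparisons that name them.

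Mouse ES cells correspond to the pluripotent epiblast of the blastocyst and are kept in that state by a network of transcription factors around Pou5f1, Sox2 and Nanog. When LIF is withdrawn and the cells aggregate, an outer layer of extraembryonic endoderm forms and the inner cells pass through an epiblast state. Wnt, Nodal and BMP signals then drive part of them through a primitive streak programme, from which mesoderm and definitive endoderm arise, while cells shielded from these signals tend towards neural fates. Which of these programmes were present on day 8 is what the 6 libraries can show.

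Each library held between 26628520 and 48350904 reads assigned to genes. Levels are given in CPM (assigned reads scaled to a common library size) after scaling by the trimmed mean of M values, always in the order clone #1, #4 and #7, and compare 1 gene between libraries, not genes with each other. The mESC library of clone #7 stood apart. Its counts differed from those of clones #1 and #4 by a chi-square per degree of freedom of 61.3 and 62.1, against 9.55 between clones #1 and #4, and the 3 pairs of EB libraries lay between 21.2 and 38.3. For genes named in the text, calls of EBs against mESCs that depend on this library are given with and without it. Counts of gene lists are given without it for some lists only, and those of other lists shift as well.

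Of 15799 genes tested, 6118 (38.7%) differed between EBs and mESCs at a false discovery rate (FDR) under 0.1 and with a log2 fold change (log2FC, EBs over mESCs) beyond 0.5 in either direction. Of these, 2920 (18.5% of the genes tested) were raised and 3198 (20.2%) were lowered. Without the mESC library of clone #7, 7184 of 16272 genes (44.1%) were called, 3367 raised and 3817 lowered. A change beyond 4-fold (absolute log2FC above 2) was found in 1096 genes (6.94%), 664 raised (4.2%) and 432 lowered (2.73%). The median log2FC over all genes tested was −0.02. Since so many genes changed, each count of a gene group below is read against these percentages.

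Over all genes tested, the 3 EB libraries lay beyond the 3 mESC libraries in 8307 (52.6%), above them in 4175 (26.4%) and below them in 4132 (26.2%). Among genes of at least moderate level whose 3 EB libraries all lay beyond the 3 mESC libraries, the 12 with the largest rises were Afp, Tgfb2, Fgf8, Mixl1, T, Cdx2, Tmprss2, Msx1, Pmp22, Amot, Wnt5a and Apob. Their log2FC ran from 5.95 to 9.13. Amot encodes angiomotin, a junction-associated regulator of the Hippo pathway. It measured 8.68, 7.85 and 11.1 CPM in mESCs and 745, 570.3 and 484 CPM in EBs (log2FC 6.02, SE 0.23, FDR 8.04e-07). The 12 with the largest falls included Inhbb, Stra8, Napsa, Slc11a1, Ak7, Foxn4, Zfyve28, Myo1f, Cd37, Mras and Cd84. Inhbb encodes the beta B subunit of activin and inhibin and fell from 27.5, 26.8 and 37.1 CPM to 0.575, 1.09 and 0.786 CPM (log2FC −5.26, SE 0.27, FDR 3.09e-06). Slc11a1, Myo1f, Cd37 and Cd84 are best known from leukocytes. Slc11a1, a metal ion transporter gene of macrophages, fell from 26.2, 22.9 and 19.09 CPM to 1.03, 1.55 and 1.11 CPM (log2FC −4.23, FDR 4.05e-06). The defining leukocyte gene Ptprc was at 0, 0 and 0.0779 CPM in these mESCs, and Lyz2 at 0, 0.112 and 0 CPM. All 24 genes kept their call in each alternative analysis that was run. Their choice by size and by separation in the same libraries favours that outcome.

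Pluripotency genes were lowered but not lost. Of 20 genes of the naive network, 15 were lowered and 1 was raised, with a median log2FC of −1.24. Pou5f1, which encodes OCT4, stood at 869, 868 and 884 CPM in mESCs and at 405, 386 and 388 CPM in EBs (log2FC −1.15, SE 0.10, FDR 5.12e-05). The 2 groups were far apart, and EBs still held 45.0% of the mESC mean. Nanog fell from 669.9, 704 and 819 CPM to 318, 325 and 385 CPM and kept 46.9% (log2FC −1.09, FDR 0.000266). Zfp42, which encodes the ES cell marker REX1, fell from 872, 870.3 and 894 CPM to 316, 301 and 312 CPM (log2FC −1.51, FDR 1.36e-05). Klf4, a factor of the naive state, showed the largest fall of the list, from 291, 268 and 218 CPM to 39.6, 46.0 and 37.6 CPM, 15.9% of the mESC mean (log2FC −2.66, FDR 4.34e-06). The orphan receptor gene Esrrb changed by a log2FC of −1.62, Tfcp2l1 (listed as Tcfcp2l1) by −1.32 and Nr0b1 by −1.39. Fgf4, the FGF ligand that ES cells themselves produce, changed by −1.61. The 1 naive gene that rose was Dppa3, also known as Stella, a marker of early germ cells, from 37.0, 23.2 and 22.3 CPM to 65.0, 54.0 and 63.9 CPM (log2FC 1.15, FDR 0.00174).

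In the list of core and shared pluripotency genes, 6 of 12 were lowered. Sox2, which is also a neural progenitor gene, fell from 470.2, 544 and 431 CPM to 287, 299.7 and 285 CPM (log2FC −0.73, FDR 0.00157). Utf1, a chromatin factor of pluripotent cells, had a log2FC of −0.64. The largest fall of this list was that of Tdgf1, the Nodal co-receptor Cripto, from 1752, 1763 and 1135 CPM to 324, 329.7 and 406 CPM (log2FC −2.13, SE 0.19, FDR 4.83e-05).

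**Figure D1:**
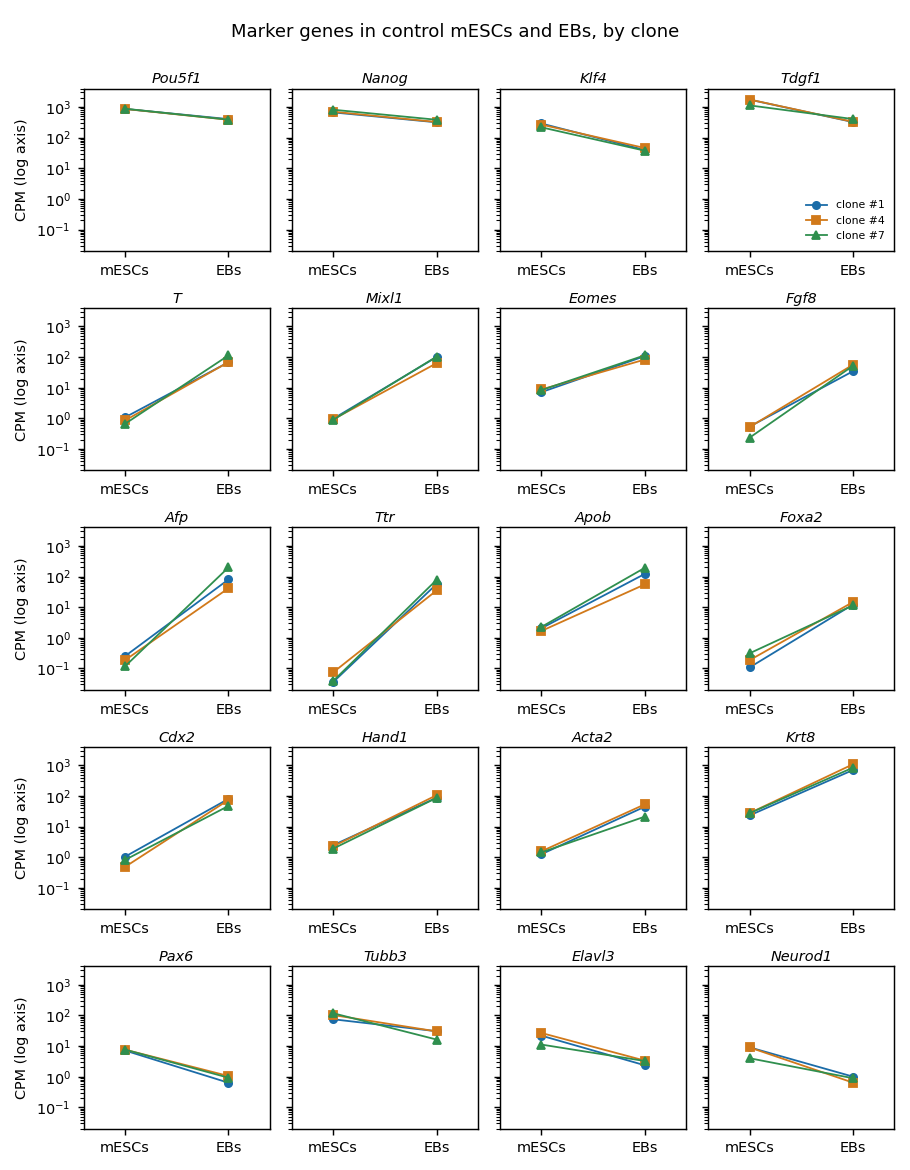
Levels of 20 marker genes in each of the 6 libraries in CPM on a log axis, with 1 line per clone from mESCs to EBs. The lines of Pou5f1, Nanog, Klf4 and Tdgf1 fall but stay above 30 CPM, those of T, Mixl1, Fgf8, Afp, Ttr and Foxa2 rise from about 1 CPM or less, and those of Pax6, Tubb3, Elavl3 and Neurod1 fall.

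Genes of the formative and primed epiblast, the state between naive cells and gastrulation, were raised in 5 of 13 cases and lowered in none. Fgf5, the classical marker of that state, measured 0.287, 0.595 and 0.506 CPM in mESCs and 20.9, 19.08 and 28.3 CPM in EBs (log2FC 5.61, SE 0.30, FDR 3.44e-06). Otx2, an early epiblast and anterior factor, rose from 22.4, 34.5 and 24.8 CPM to 55.0, 47.1 and 54.8 CPM (log2FC 0.94, FDR 0.00227). Fgf8 belongs to this list too and is described with the signals.

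Primitive streak and early mesoderm genes were raised almost throughout. Of 18 tested, 16 were raised, 15 of them more than 4-fold, and 1 was lowered (15 raised and 1 lowered without the mESC library of clone #7). The median log2FC was 4.14. T, which encodes Brachyury and marks the streak, measured 1.08, 0.855 and 0.662 CPM in mESCs and 68.0, 68.6 and 113 CPM in EBs (log2FC 6.58, SE 0.29, FDR 1.77e-06). Clone #7 had the highest EB level, and no EB library came near the mESC libraries. Mixl1, a homeobox gene of the streak, rose from 0.969, 0.930 and 0.896 CPM to 101, 63.5 and 104 CPM (log2FC 6.58, SE 0.25, FDR 8.04e-07). Eomes, a T-box factor needed for definitive endoderm and mesoderm, was already present in mESCs at 7.18, 8.78 and 8.38 CPM and reached 108, 83.5 and 115 CPM in EBs (log2FC 3.65, SE 0.16, FDR 1.77e-06). Evx1 of the posterior streak had a log2FC of 6.05, and the organizer genes Lhx1 and Gsc had values of 6.27 and 3.61. Foxf1 (listed as Foxf1a), a factor of lateral and extraembryonic mesoderm, had only 3 reads over the 3 mESC libraries, and its EB to mESC ratio was 137 (95% exact interval 46.8 to 668, counting error only). Genes of nascent and presomitic mesoderm went different ways. Msgn1, a defining gene of presomitic mesoderm, rose from 0.108, 0.0372 and 0.0390 CPM to 1.64, 1.13 and 3.79 CPM (log2FC 5.04, FDR 0.00052). Mesp1, a marker of nascent mesoderm, rose from 0.610, 0.669 and 0.195 CPM to 2.57, 2.53 and 5.61 CPM (log2FC 2.84, FDR 0.00204). Tbx6 stayed between 1.09 and 2.22 CPM over all 6 libraries (log2FC 0.32, FDR 0.436), and Mesp2 was the 1 lowered member, from 6.78, 5.62 and 2.96 CPM to 1.58, 1.96 and 2.002 CPM (log2FC −1.48, FDR 0.00691).

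Ligands and feedback targets of the Nodal, Wnt, BMP and FGF pathways were raised in 24 of 34 cases and lowered in 4, with a median log2FC of 1.35. Among Wnt ligands, Wnt3, which is required to form the streak, rose from 3.95, 2.94 and 1.01 CPM to 39.3, 29.7 and 30.8 CPM (log2FC 3.65, FDR 0.000121). Wnt5a, a ligand of non-canonical signalling and of axis elongation, rose from 1.44, 0.855 and 1.48 CPM to 108, 83.6 and 51.5 CPM (log2FC 6.01, SE 0.33, FDR 4.05e-06). Wnt8a of the streak changed by a log2FC of 2.63. Several genes that canonical Wnt signalling is known to switch on rose as well. Axin2, a feedback inhibitor, measured 10.9, 8.33 and 13.4 CPM and then 102, 84.8 and 65.7 CPM (log2FC 2.95, SE 0.22, FDR 1.82e-05). Sp5, a transcription factor, rose from 1.00, 0.818 and 0.468 CPM to 15.7, 26.5 and 19.2 CPM (log2FC 4.73, FDR 1.16e-05). Dkk1, a secreted Wnt inhibitor, rose from 0.431, 0.335 and 1.13 CPM to 42.7, 41.3 and 28.8 CPM (log2FC 5.90, FDR 8.11e-06). Nkd1, another inhibitor, had a log2FC of 2.54. Lef1, which encodes a nuclear partner of beta-catenin, did not pass the test (log2FC 0.19, FDR 0.554).

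T, Sp5 and Dkk1 are known Wnt targets, and the 250 bases before each of their start sites are shown because each held 1 copy of a short TCF/LEF motif. TCF and LEF proteins carry the Wnt signal to DNA. The motif was searched as CTTTGAT or CTTTGAA on both strands, and no match overlapped another. The sequences are RefSeq's on build GRCm38.p6, written 5′ to 3′ in the direction of transcription, with the motif in capitals. The stretches lie at chr17:8434173-8434422 on the plus strand for T, at chr2:70474673-70474922 on the plus strand for Sp5 and at chr19:30549497-30549746 on the minus strand for Dkk1. In T the motif reads on the opposite strand.
T: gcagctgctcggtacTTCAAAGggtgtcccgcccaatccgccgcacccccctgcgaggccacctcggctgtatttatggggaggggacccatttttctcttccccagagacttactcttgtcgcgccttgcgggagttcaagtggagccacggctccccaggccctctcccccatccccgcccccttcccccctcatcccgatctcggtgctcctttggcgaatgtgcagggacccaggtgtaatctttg
Sp5: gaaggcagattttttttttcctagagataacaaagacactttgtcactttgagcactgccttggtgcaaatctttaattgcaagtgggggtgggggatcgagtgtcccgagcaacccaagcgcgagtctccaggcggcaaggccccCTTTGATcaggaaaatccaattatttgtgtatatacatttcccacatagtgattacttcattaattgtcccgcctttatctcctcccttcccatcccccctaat
Dkk1: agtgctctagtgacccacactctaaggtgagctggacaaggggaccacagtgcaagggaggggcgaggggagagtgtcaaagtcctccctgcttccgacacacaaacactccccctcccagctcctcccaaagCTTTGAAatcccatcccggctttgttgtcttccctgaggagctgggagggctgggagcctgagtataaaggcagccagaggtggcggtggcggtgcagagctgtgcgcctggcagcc
The first base of the match lay 235, 104 and 117 bases before the start in T, Sp5 and Dkk1. Among T, Axin2, Lef1, Sp5, Nkd1 and Dkk1, 3 of 6 genes held the motif in this window, against 2333 of all 27025 genes with a listed promoter (8.63%). These are matches of letters in a short window, and the stretches of Axin2, Lef1 and Nkd1 held none. Each of the 3 genes that held it was at or below 1.13 CPM in every mESC library and at or above 15.7 CPM in every EB library. Axin2 and Nkd1, which held none, were raised as well, and Lef1 was not. Whether the motif had a part in any of these changes was not tested.

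Among the BMP ligands, Bmp2 rose from 0.251, 0.707 and 0.312 CPM to 29.7, 33.0 and 19.6 CPM (log2FC 6.01, SE 0.37, FDR 7.21e-06) and Bmp4, which induces posterior mesoderm, from 9.72, 8.52 and 13.3 CPM to 65.5, 69.5 and 48.3 CPM (log2FC 2.54, FDR 2.74e-05). No read of Bmp5 was seen in the 3 mESC libraries, while EBs had 1.93, 2.26 and 2.07 CPM. That is at least 55.4-fold higher, set against 3 counts over the mESC group, and 46.7% of its exon bases are shared with another gene. Noggin (Nog), an antagonist of BMPs, changed by a log2FC of 2.80, and Id1, a BMP response gene, by 0.90. Id2, of the same family as Id1, did not pass the test (log2FC 0.01, FDR 0.966).

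On the Nodal side, the ligand itself was close in both stages at 110.0, 119 and 126 CPM and 120.4, 106 and 89.2 CPM (log2FC −0.17, FDR 0.336). Its targets and inhibitors Lefty1 and Lefty2 rose, with log2FC values of 1.32 and 1.93, while the co-receptor Tdgf1 fell, as given above. For FGF ligands, Fgf8 of the streak and posterior epiblast rose from 0.538, 0.521 and 0.234 CPM to 34.6, 56.6 and 52.2 CPM (log2FC 6.77, SE 0.31, FDR 2.05e-06). Fgf10, a mesenchymal ligand, rose from 1.61, 3.16 and 2.10 CPM to 42.0, 32.1 and 31.1 CPM (log2FC 3.93, FDR 9.09e-06). The FGF feedback genes went opposite ways, since Dusp6 rose (log2FC 1.503, FDR 0.00016) and Spry4 fell (log2FC −1.09, FDR 0.00221).

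**Figure D2:**
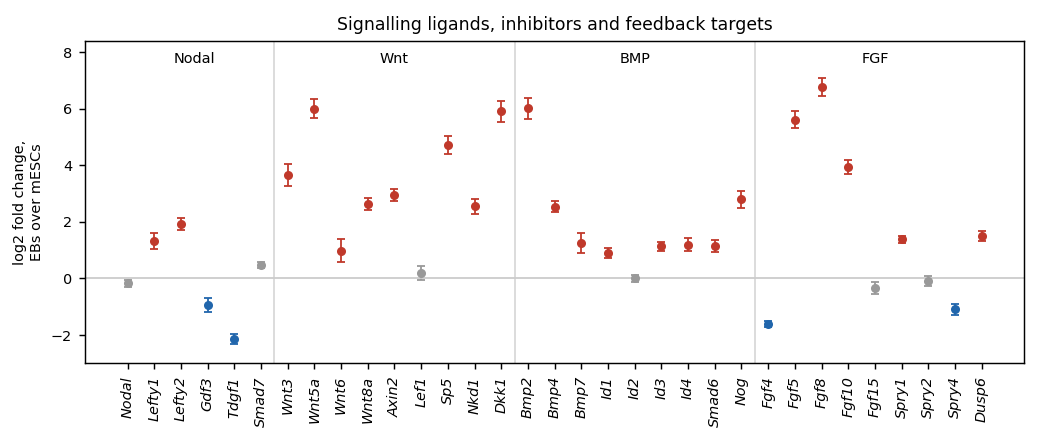
The log2FC (EBs over mESCs) of the ligands and feedback genes of the Nodal, Wnt, BMP and FGF pathways, with bars of 1 standard error and Bmp5 left out because no mESC read was seen. Red points are raised, blue points lowered and grey points not past the limits. Most points lie above 0, Fgf8 is the highest at 6.77, Nodal lies at −0.17 and Tdgf1 is the lowest at −2.13.

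Endoderm genes were raised almost throughout as well. Of 21 visceral and definitive endoderm genes tested, 20 were raised, 16 of them more than 4-fold, and none was lowered (19 raised without the mESC library of clone #7), with a median log2FC of 3.53. Afp, alpha-fetoprotein of visceral endoderm and fetal liver, measured 0.251, 0.186 and 0.117 CPM in mESCs and 80.3, 41.5 and 198 CPM in EBs (log2FC 9.13, SE 0.76, FDR 3.35e-05). All 3 EB libraries lay far above the mESCs, but they differed among themselves, with clone #7 highest and clone #4 lowest. The same order held for Apob, an apolipoprotein of lipid-exporting endoderm (122, 55.5 and 193 CPM in EBs, log2FC 5.95, FDR 2.31e-05), for transthyretin, Ttr (57.0, 35.3 and 78.2 CPM, log2FC 10.05, FDR 2.05e-06), and for Cubn, an uptake receptor of visceral endoderm (143, 81.4 and 176 CPM, log2FC 4.51, FDR 4.05e-05). The log2FC of Ttr rests on few mESC reads. Transcription factors of endoderm were more even over the clones. Foxa2 rose from 0.108, 0.186 and 0.312 CPM to 12.2, 14.7 and 11.5 CPM (log2FC 5.98, SE 0.33, FDR 4.37e-06), Sox17 to 24.6, 27.3 and 18.3 CPM (log2FC 4.32, FDR 1.65e-05) and Gata6 to 21.3, 22.7 and 20.4 CPM (log2FC 3.53, FDR 1.36e-05). Gata4 had a log2FC of 3.87 and Hnf4a, present in mESCs at 6.28, 5.99 and 5.42 CPM, one of 1.29. Alb, the albumin of later liver, was not tested, with 1 read over the 3 EB libraries.

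Parietal endoderm, the other extraembryonic endoderm, lays down a thick basement membrane. Of its 14 genes, 9 were raised and 1 was lowered (2 lowered without the mESC library of clone #1 or #4 or the EB library of clone #4). The collagen IV genes Col4a1 and Col4a2 rose from 95.5, 116 and 133 CPM to 469.6, 413 and 495 CPM (log2FC 2.000, FDR 1.99e-05) and from 37.9, 46.7 and 44.0 CPM to 247, 216 and 272 CPM (log2FC 2.51, FDR 4.05e-06). Sparc, a matrix glycoprotein, rose from 229, 239 and 254 CPM to 583, 608 and 698 CPM (log2FC 1.39, FDR 4.04e-05). Dab2, an endocytic adaptor of both endoderm layers, rose from 7.46, 10.2 and 12.4 CPM to 221, 148 and 313 CPM (log2FC 4.50, FDR 1.17e-05, 18.7% of exon bases shared with another gene), and the parathyroid hormone receptor gene Pth1r from 1.65, 2.57 and 2.14 CPM to 37.5, 33.0 and 37.0 CPM (log2FC 4.08, FDR 2.05e-06). Lama1 was high at both stages, 87.3, 102 and 117 CPM and 114, 106 and 172 CPM (log2FC 0.35, FDR 0.17).

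Hox genes, which set position along the body axis, were raised in 28 of 31 cases tested, 21 of them more than 4-fold, and lowered in 2, with a median log2FC of 3.33. A further 8 of the 39 genes were too low to be tested in this comparison. Without the mESC library of clone #7, 33 were raised and 2 lowered. Both lowered genes belong to the last paralog groups: Hoxc13, from 7.21, 7.14 and 4.48 CPM to 1.81, 1.85 and 2.14 CPM (log2FC −1.70, FDR 0.0011), and Hoxb13 (log2FC −1.64, FDR 0.0173). Hoxd13 did not pass the test (log2FC 0.63, FDR 0.171) and was called raised without the EB library of clone #7 (log2FC 0.93). Paralog groups 1 to 3 had 6 of 6 genes raised with a median log2FC of 2.26, groups 4 to 8 had 11 of 11 with 3.33, groups 9 and 10 had 7 of 7 with 4.99, and groups 11 to 13 had 4 of 7 with 3.25. The summed level of groups 9 and 10 was 4.34, 4.95 and 5.53 CPM in mESCs and 73.0, 61.4 and 31.6 CPM in EBs. EBs therefore held transcripts of trunk and posterior Hox genes, and clone #7 had the lowest EB sum in each of these paralog groups. Examples are Hoxa9, from 0.466, 0.298 and 0.273 CPM to 15.5, 12.2 and 5.93 CPM (log2FC 5.00, SE 0.44, FDR 4.56e-05), Hoxd9, from 0.287, 0.521 and 0.429 CPM to 14.0, 15.8 and 9.76 CPM (log2FC 4.99, FDR 8.29e-06), and Hoxc8, from 0.108, 0.0372 and 0 CPM to 9.47, 8.07 and 3.15 CPM (log2FC 7.01, FDR 9.64e-05). Hoxa2 of the hindbrain level reached only 1.03, 0.980 and 1.07 CPM (log2FC 1.96, FDR 0.00369). The neighbouring genes overlap in these clusters, with for example 53.5% of Hoxa3 exon bases shared, so single values of overlapping members are uncertain. Cdx2, a homeobox gene that activates posterior Hox genes and is also a trophoblast factor, rose from 1.04, 0.483 and 0.818 CPM to 80.7, 74.2 and 47.4 CPM (log2FC 6.42, SE 0.30, FDR 2.05e-06).

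**Figure D3:**
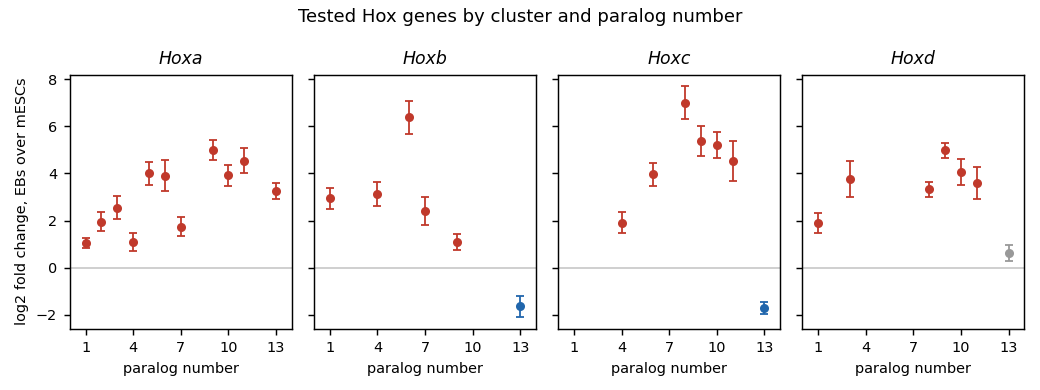
The log2FC (EBs over mESCs) of the Hox genes tested, by cluster and paralog number, with 1 point per gene and a bar of 1 standard error. Red points are raised, blue points lowered and the grey point (Hoxd13) not past the limits. All points lie above 0 except Hoxc13 and Hoxb13 at the right of their clusters, and the highest is Hoxc8 at 7.01.

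Mesenchymal and contractile genes rose in part. Of 19 mesenchymal matrix genes, 12 were raised, and the 1 lowered gene, Thy1, lost its call in 4 of the 6 analyses that left out a library. The collagen I gene Col1a1 rose from 8.54, 6.77 and 3.55 CPM to 173, 191 and 94.6 CPM (log2FC 4.602, SE 0.36, FDR 2.52e-05), Col1a2 to 10.5, 19.5 and 25.2 CPM (log2FC 3.79, FDR 5.72e-05), and fibronectin (Fn1), abundant at both stages, from 742, 628 and 730.5 CPM to 1593, 1374 and 1162 CPM (log2FC 0.97, FDR 0.000793). Col3a1 had 3 reads over the mESC libraries and a ratio of 210 (95% exact interval 71.7 to 1022). Tnc, tenascin of embryonic mesenchyme, had a log2FC of 5.22. Of 7 smooth muscle genes, 3 were raised and none was lowered. Acta2 rose from 1.26, 1.56 and 1.44 CPM to 44.8, 53.5 and 21.2 CPM (log2FC 4.81, SE 0.36, FDR 1.96e-05) and Tagln from 6.32, 8.48 and 3.82 CPM to 132, 132 and 129 CPM (log2FC 4.40, FDR 4.53e-06), which are also expressed in early mesenchyme, whereas the myosin of mature smooth muscle, Myh11, stood at 1.54, 2.05 and 2.06 CPM and 1.21, 1.21 and 1.57 CPM (log2FC −0.50, FDR 0.188).

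Cardiac and striated muscle genes did not move as a group. Of 19 tested, 8 were raised and 7 were lowered (8 and 9 without the mESC library of clone #7). Among the raised, the actin gene Actc1 had 1 read in the mESC libraries and 5.57, 4.56 and 4.43 CPM in EBs, a ratio of 404 (95% exact interval 72.2 to 15999), and Myl3 rose to 2.55, 2.71 and 3.11 CPM (log2FC 5.15, FDR 1.92e-05). Most of the defining sarcomere genes of cardiomyocytes fell. Myh6 fell from 7.75, 7.92 and 6.90 CPM to 2.73, 2.56 and 2.25 CPM (log2FC −1.58, FDR 0.000461) and Myl7 from 13.5, 13.2 and 6.74 CPM to 3.86, 3.24 and 3.54 CPM (log2FC −1.65, FDR 0.00179), and Myh7 fell as well (log2FC −1.20, FDR 0.0123). Tnnt2, cardiac troponin T, rose from 0.610, 0.781 and 0.701 CPM to 1.58, 1.02 and 1.25 CPM (log2FC 0.89, FDR 0.0509), but was not called with the block (log2FC 0.88, FDR 0.105), nor without the mESC (log2FC 0.81) or the EB library of clone #1 (log2FC 0.71). The cardiac factor gene Nkx2-5 was at 0.538, 0.632 and 0.234 CPM and 0.329, 0.377 and 0.465 CPM (log2FC −0.29, FDR 0.634). Of 10 tested genes of paraxial and intermediate mesoderm and skeletal muscle, 2 were raised and 4 lowered (4 and 7 without the mESC library of clone #7), and Myf5 and Myod1, the skeletal muscle determination genes, were too low to be tested.

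Endothelial genes split. Of 19 tested, 9 were raised and 3 were lowered (10 and 4 without the mESC library of clone #7). The VEGF receptor genes Kdr, which also marks early mesoderm, and Flt1 rose from 1.15, 0.818 and 2.45 CPM to 41.7, 29.8 and 37.5 CPM (log2FC 4.63, FDR 1.99e-05) and from 2.22, 2.94 and 2.06 CPM to 49.6, 52.5 and 26.4 CPM (log2FC 4.15, FDR 1.47e-05). Aplnr, a receptor of early mesoderm and of vessels, had 3 mESC reads and reached 10.3, 9.43 and 13.5 CPM, a ratio of 296 (95% exact interval 101 to 1436). Cdh5, the junction gene of mature endothelium, rose to only 3.39, 6.37 and 1.86 CPM (log2FC 2.41, FDR 0.0034). Pecam1, which ES cells express too, fell from 77.2, 58.7 and 79.7 CPM to 39.6, 40.6 and 37.1 CPM (log2FC −0.88, FDR 0.00107), and Tek fell from 17.9, 17.6 and 23.3 CPM to 11.5, 7.28 and 5.65 CPM (log2FC −1.26, FDR 0.00457). Of 11 tested genes of primitive red cells and early blood, 2 were raised and 6 lowered, but only 3 were lowered without the EB library of clone #1 or of clone #7. Runx1, a factor of the first blood cells that other mesoderm expresses as well, rose from 2.69, 2.71 and 1.21 CPM to 29.2, 28.5 and 14.7 CPM (log2FC 3.45, SE 0.36, FDR 0.000127). The globins of primitive red cells were low. Hbb-bh1 had no read in mESCs and 0.760, 2.26 and 0 CPM in EBs, and Hba-x stood at 0.0411, 0.113 and 0 CPM. Reads of Hbb-bh1 thus came from the EBs of clones #1 and #4 only. Of the 14 macrophage genes, 3 were high enough to be tested, and 1 was raised and 1 lowered (1 and 2 without the mESC library of clone #7). The lowered gene was Itgam (log2FC −1.74). Csf1r, which placental and other cells also express, rose to 1.85, 3.28 and 2.29 CPM (log2FC 2.80, FDR 0.00176, 16.7% of exon bases shared), while Ptprc had no read in any EB library and Tyrobp 0.0205, 0 and 0.0715 CPM.

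Epithelial and trophoblast genes rose. Of 16 genes of surface ectoderm and epithelium, 11 were raised and 1 lowered. Krt8 and Krt18, a keratin pair of simple epithelia including extraembryonic endoderm and trophoblast, rose from 23.2, 27.6 and 27.4 CPM to 706, 1088 and 844 CPM (log2FC 5.08, SE 0.20, FDR 8.96e-07) and from 23.2, 23.8 and 21.3 CPM to 407, 611 and 656 CPM (log2FC 4.62, FDR 1.77e-06). Among the defining genes of stratified epidermis, Krt5 stood at 0.452, 0.867 and 0.214 CPM in EBs and did not pass the test (log2FC −0.46, FDR 0.486). Trp63 measured 0.108, 0.149 and 0.623 CPM and 0.534, 0.679 and 0.465 CPM (log2FC 0.94, FDR 0.235) and was called raised without the mESC library of clone #7 (log2FC 2.09, FDR 0.00676). Krt14 rose from 0.287, 0.446 and 0.390 CPM to 0.698, 1.36 and 0.608 CPM (log2FC 1.22, FDR 0.0476), a call lost without the mESC library of clone #1 (log2FC 1.07) or the EB library of clone #4 (log2FC 0.82). E-cadherin, Cdh1, was level at 297, 282 and 361 CPM and 295, 306 and 340.0 CPM (log2FC 0.00, FDR 0.992), while N-cadherin, Cdh2, which cells of the streak take up, rose from 6.60, 6.51 and 6.23 CPM to 123, 104 and 78.1 CPM (log2FC 3.98, SE 0.18, FDR 2.05e-06). Of 10 trophoblast genes, 9 were raised and 1 was lowered. This list shares Cdx2, Eomes and Hand1 with streak or posterior mesoderm, and Hand1, for example, rose from 2.48, 2.27 and 1.91 CPM to 88.0, 107 and 87.1 CPM (log2FC 5.40, FDR 4.49e-07). The markers most particular to trophoblast rose to few reads. Elf5 reached 0.904, 0.754 and 0.965 CPM (log2FC 2.12, FDR 0.00488), and Tpbpa, with 2 mESC reads, reached 0.596, 2.07 and 0.643 CPM, a ratio of 40.0 (95% exact interval 10.8 to 334).

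**Figure D4:**
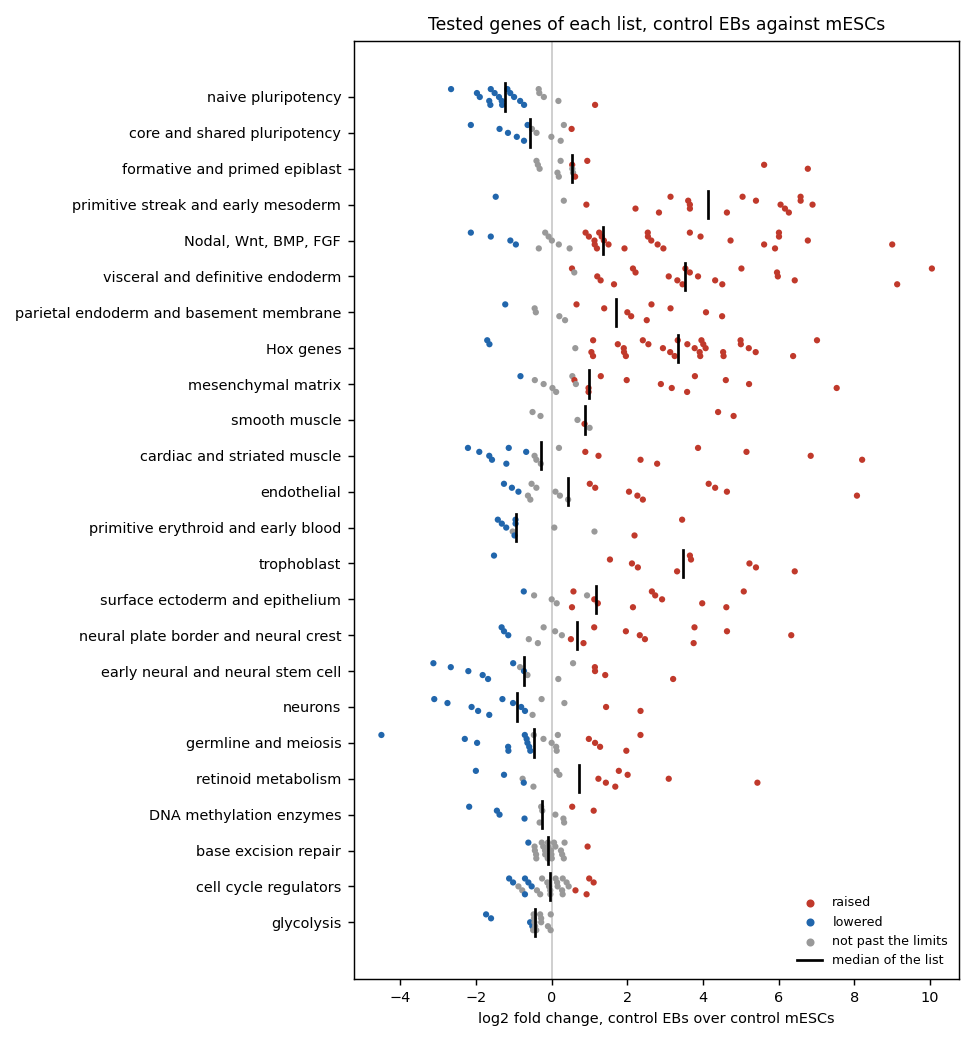
The log2FC (EBs over mESCs) of every tested gene by gene list, with a black line at the list median. Red points are raised, blue points lowered and grey points not past the limits. The lists of streak, visceral endoderm, Hox and trophoblast genes lie mostly to the right of 0 with medians between 3.33 and 4.14, and those of neurons and naive pluripotency mostly to the left.

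Neuronal genes were mostly lowered, and early neural genes were lowered more often than raised. Of 15 early neural and neural stem cell genes, 7 were lowered and 4 raised, with a median log2FC of −0.73. Without the mESC library of clone #7, 9 were lowered and 4 raised. Of 14 neuronal genes 9 were lowered and 2 raised, with a median log2FC of −0.91. Pax6, a neural progenitor factor, fell from 7.18, 7.66 and 7.68 CPM to 0.637, 1.06 and 0.929 CPM (log2FC −3.12, SE 0.27, FDR 3.84e-05, 27.9% of exon bases shared). Tubb3, neuronal tubulin, fell from 75.03, 103 and 118 CPM to 30.6, 30.1 and 16.3 CPM (log2FC −1.94, FDR 0.000407). Stmn2, a growth cone protein gene, fell from 319.8, 288 and 314 CPM to 65.9, 68.7 and 78.5 CPM (log2FC −2.11, FDR 4.74e-06). Elavl3 had a log2FC of −2.75 and Neurod1 one of −3.10. Many of these genes were thus measurable in mESCs and lower in EBs. The exceptions included Nes, nestin of neural and other progenitors, which rose from 15.4, 13.8 and 17.3 CPM to 29.8, 29.7 and 43.4 CPM (log2FC 1.14, FDR 0.00114), and Isl1, also a factor of cardiac mesoderm, which rose to 5.38, 5.13 and 4.47 CPM (log2FC 2.35, FDR 0.000372).

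For the neural plate border and neural crest, 10 of 18 genes tested were raised and 3 lowered. The raised ones were led by factors that mesoderm uses as well. Msx1, a homeobox gene and BMP target, rose from 1.47, 1.26 and 0.779 CPM to 103, 119 and 63.3 CPM (log2FC 6.33, SE 0.31, FDR 2.53e-06), Msx2 from 4.66, 4.57 and 6.78 CPM to 72.9, 82.5 and 60.3 CPM (log2FC 3.75, FDR 3.44e-06) and Twist1 to 17.1, 18.9 and 6.47 CPM (log2FC 2.33, FDR 0.00197). Of the defining crest genes, Pax3 rose from 0.0359, 0.149 and 0.0390 CPM to 0.760, 1.36 and 1.14 CPM (log2FC 3.77, FDR 0.000793), Sox10 stood at 2.55, 3.09 and 0.818 CPM and 1.19, 0.792 and 2.29 CPM (log2FC −0.60, FDR 0.386), and Tfap2b (listed as Tcfap2b) had 13 reads over the 3 EB libraries and was not tested. Sox10 was called lowered without the mESC library of clone #7. Foxd3, which is a pluripotency gene too, was at 14.1, 16.3 and 27.0 CPM and 15.0, 19.6 and 10.1 CPM (log2FC −0.36, FDR 0.348).

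Germline genes fell more often than they rose, with 10 of 21 lowered and 5 raised. Stra8, a gene of meiotic entry, fell from 73.5, 142 and 91.8 CPM to 1.87, 6.11 and 6.04 CPM (log2FC −4.50, SE 0.44, FDR 8.26e-05). Dazl and Ddx4, RNA-binding protein genes of germ cells, had log2FC values of −0.64 and −0.56. Ddx4 was not called without the mESC library of clone #1 (log2FC −0.39). Prdm1, a factor of primordial germ cells and of endoderm, rose (log2FC 0.98, FDR 0.00276). The homeobox genes Rhox6 and Rhox9 rose as well, with values of 2.35 and 1.97, but they are closely related copies and their counts are uncertain.

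Enzymes that write and remove DNA methylation changed at several points. Of 12 genes, 4 were lowered and 2 raised, against 20.2% lowered and 18.5% raised of all genes tested. Both of the raised depended on single libraries. Dnmt3b, a de novo methyltransferase gene, measured 238, 252 and 363 CPM and 479, 391 and 373 CPM (log2FC 0.54, FDR 0.0373) and was not called without the mESC library of clone #1 (log2FC 0.44) or #4 (0.47) or the EB library of clone #1 (0.44). Gadd45g, a gene linked to active demethylation, measured 6.50, 8.14 and 4.95 CPM and 14.1, 20.3 and 7.93 CPM (log2FC 1.11, FDR 0.0244) and was not called without the EB library of clone #4 (log2FC 0.77). Tet2, which oxidizes 5-methylcytosine, fell from 147, 159 and 151 CPM to 36.3, 34.2 and 30.4 CPM (log2FC −2.18, SE 0.12, FDR 3.44e-06) and Tet1 from 237, 225 and 329.8 CPM to 111, 95.9 and 83.4 CPM (log2FC −1.45, FDR 0.000275). Tet3 stood at 15.3, 16.8 and 13.4 CPM and 20.3, 20.8 and 15.4 CPM (log2FC 0.31, FDR 0.169). Dnmt3l, a cofactor of the de novo methyltransferases, fell from 507, 577 and 714 CPM to 251, 221 and 221 CPM (log2FC −1.38, FDR 0.000141), and the maintenance enzyme Dnmt1 did not pass the test (log2FC −0.25, FDR 0.15). Of 22 base excision repair genes, which process the damaged or oxidized bases, 1 was raised and 1 lowered (2 and 3 without the mESC library of clone #7, and 0 raised without that of clone #4 or the EB library of clone #1 or #4). The glycosylase gene Neil1 measured 9.65, 9.45 and 7.56 CPM and 5.67, 8.90 and 8.399 CPM (log2FC −0.22, FDR 0.462). Neil2 measured 14.9, 13.1 and 5.69 CPM and 6.30, 8.18 and 10.4 CPM (log2FC −0.44, FDR 0.326), and the mESC library of clone #7 lay below the others. Without it Neil2 was called lowered, with a log2FC of −0.75 (FDR 0.0116). Apex1, the abasic site endonuclease gene, measured 8.04, 7.62 and 17.6 CPM and 15.2, 14.7 and 12.2 CPM (log2FC 0.34, FDR 0.403), again with clone #7 apart, and was called raised without that library (0.85, FDR 0.00161). For Apex1 61.7% of exon bases are shared with another gene. Tbp, a reference gene for qPCR, had a log2FC of −0.05 (FDR 0.754).

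Of 27 cell cycle regulators, 4 were raised and 6 lowered (1 raised without the EB library of clone #4), with a median log2FC of −0.04. These counts lie near the shares of all genes tested, 18.5% raised and 20.2% lowered. The inhibitor gene Cdkn1a, which encodes p21, rose from 69.6, 76.0 and 54.5 CPM to 147, 154 and 131 CPM (log2FC 1.11, FDR 0.000395), and the cyclin gene Ccnd3 fell from 249.1, 267 and 277 CPM to 108, 132 and 152 CPM (log2FC −1.02, FDR 0.000608). Among 14 genes of retinoid metabolism, 7 were raised and 3 lowered (5 lowered without the mESC library of clone #7). Cyp26a1, which degrades RA and is expressed in the streak, rose from 1.90, 2.90 and 2.10 CPM to 95.4, 88.0 and 116 CPM (log2FC 5.44, SE 0.20, FDR 7.72e-07) although no RA had been added. Rarb, a receptor gene that RA is known to induce, measured 1.08, 1.41 and 1.09 CPM and 0.698, 0.943 and 0.465 CPM (log2FC −0.77, FDR 0.111) and was called lowered without the mESC library of clone #7 (log2FC −0.82, FDR 0.084). Rarg fell (log2FC −2.001, FDR 4e-05).

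Imprinted genes, which are expressed from only 1 parental copy, behaved differently between the clones. Of 24 tested, 11 were raised and 1 was lowered (13 and 3 without the EB library of clone #1, 9 and 1 without the mESC library of clone #7, 15 and 1 with clone as a block). Peg3 rose from 41.9, 90.6 and 86.4 CPM to 694, 1133 and 985 CPM (log2FC 3.68, SE 0.31, FDR 3.67e-05) and Peg10 from 388, 722 and 947 CPM to 2637, 4871 and 3905 CPM (log2FC 2.47, FDR 0.000463). Igf2, a fetal growth factor expressed from the paternal copy, measured 31.0, 6.03 and 16.3 CPM in mESCs and 1771, 319 and 287 CPM in EBs (log2FC 5.48, SE 0.97, FDR 0.00396). H19, the maternally expressed RNA beside it, measured 45.0, 177 and 236 CPM and 524, 5708 and 3156 CPM (log2FC 4.36, SE 0.95, FDR 0.00962). Clone #1 had the highest Igf2 and the lowest H19 at both stages. Grb10 was high in clone #1 alone, at 171, 37.4 and 38.3 CPM and 321, 13.3 and 18.7 CPM (log2FC 0.52, FDR 0.779), and without the EB library of clone #1 its log2FC turned to −2.35. Mest measured 7.39, 91.0 and 129.6 CPM and 88.5, 565 and 318 CPM. It was called raised with the block (log2FC 2.49, FDR 0.00683) and without the EB library of clone #1 (log2FC 2.55), and in no other analysis. Plagl1 stood at 4.09, 25.8 and 40.9 CPM and 6.39, 46.1 and 50.2 CPM and was called raised with the block alone (log2FC 0.59). Nnat stood at 1.18, 14.4 and 7.64 CPM and 5.81, 51.8 and 37.96 CPM and was called raised with the block (log2FC 2.14), with a filter at a mean CPM of at least 1, and without the EB library of clone #1 (log2FC 2.55).

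A test of the clone term over all genes, with stage in the model, called 3 of 15799 genes (0.019%), each with FDR 0.0688: Plagl1, Nnat and Mcts2, all of them imprinted. Mcts2, a retrogene copy of Mcts1 that is expressed from the paternal allele, was in no list and was singled out after its values were seen. It measured 7.72, 38.8 and 39.7 CPM in mESCs and 6.90, 30.5 and 36.8 CPM in EBs, lowest in clone #1 at both stages. In 5 of the 24 imprinted genes clone #1 lay more than 2-fold beyond both other clones in the same direction at both stages, below them for H19, Mest, Plagl1 and Nnat and above them for Grb10. Over all genes this held for 29 of 15799 (0.184%). Clone #4 lay so far beyond the others in 9 genes (0.057%) and clone #7 in 51 (0.323%), with 1 and 0 imprinted genes among them. The control EBs treated with RA come from the same clones and had no part in choosing these genes. There, in CPM by library total, Plagl1 measured 104, 829 and 367, Nnat 41.8, 355 and 238, and Mcts2 9.30, 37.9 and 35.6. H19 measured 909.8, 7733 and 10286 CPM, Mest 108, 667 and 709 CPM, and Grb10 805, 6.55 and 11.7 CPM. The share of all genes in which clone #1 stood apart in EBs + RA is not given here. Clone #1 lay beyond both other clones by more than 2-fold and in the same direction for all 6 genes. It did so for 19 of the 29 genes, with none in the opposite direction. Since the labels give 1 culture per clone and stage, this is a difference between clones in this study and not between genotypes.

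**Figure D5:**
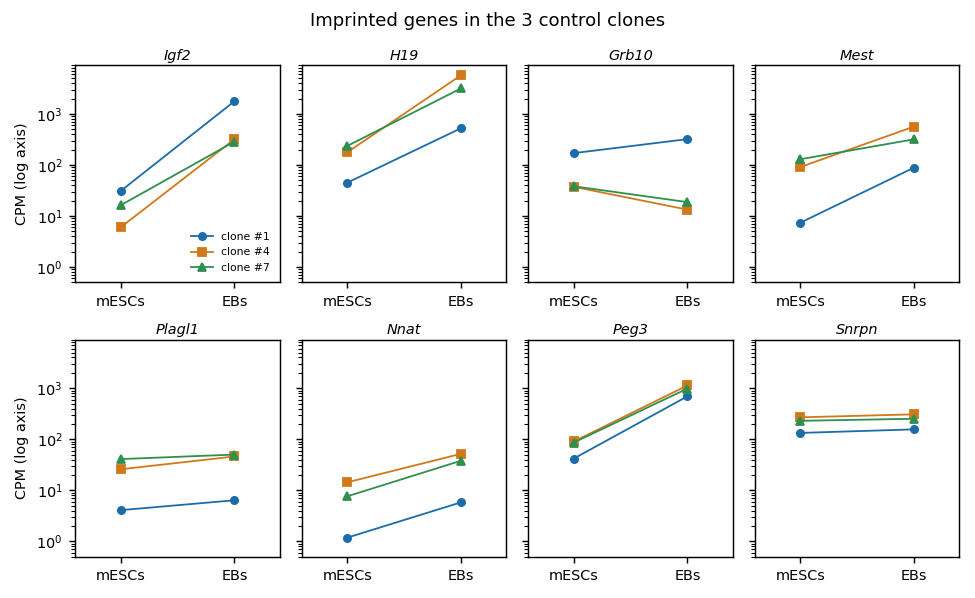
Levels of 8 imprinted genes in CPM on a log axis in mESCs and EBs, with 1 line per clone. For Plagl1, Nnat, Mest and H19 the line of clone #1 lies below the other clones at both stages, for Grb10 and Igf2 above them, and for Peg3 all 3 clones rise together.

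The change from mESCs to EBs was also compared with that of 3 Neil1 and 3 Neil2 mutant clones, made with Cas9 and guide RNAs in the same line and cultured in the same way. The test was the interaction of stage and genotype, and both comparisons share the 6 control libraries. The change differed from controls in 1649 of 16341 genes in Neil1 clones (10.1%), in 958 of them (5.86%) with a lower and in 691 (4.23%) with a higher value than in controls. For Neil2 clones these were 1677 of 16387 genes (10.2%), 911 lower (5.56%) and 766 higher (4.67%), and 974 genes with clone as a block. Without the control EB library of clone #4 the counts were 1058 for Neil1 and 994 for Neil2. The Neil2 count was 1116 without the control EB library of clone #1, and 865 and 1013 without the mESC or the EB library of Neil2 clone #14. Each interaction holds the change of these control libraries, and the lists were chosen with results of these data known. Of the 18 streak genes tested, the change was lower than in controls in 12 for Neil1 and in 10 for Neil2. It was higher in none. T reached 5.88, 2.90 and 4.34 CPM in the EBs of 3 Neil1 clones (interaction −3.65, SE 0.54, FDR 0.0018) and 0.622, 3.95 and 2.69 CPM in those of 3 Neil2 clones (interaction −3.54, SE 0.89, FDR 0.0321). Of the 31 Hox genes tested the change was lower in 24 and 21 and higher in none. Of the 34 signalling genes it was lower in 17 and 15 and higher in 3 and 2. Of the 21 endoderm genes tested the change was lower in 2 and 1 and higher in none. Afp, for example, reached 224, 232 and 104 CPM (interaction 1.10, SE 1.41, FDR 0.753) and 215, 45.3 and 178 CPM (interaction 1.23, SE 1.80, FDR 0.747). Of the 20 naive pluripotency genes, the log2FC had a higher value than in controls in 8 and 7 and a lower one in 1 and 0. Whether the endoderm and streak lists differed from each other in these shares was not tested. In the Neil1 mESC library of clone #11, 0.944% of the counts lay on chromosome X, against 3.23% to 4.58% in the other mESC libraries. The EB library of the same clone held 4.39%. Without that mESC library 1520 genes were called for Neil1.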

How the data were processed

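RNA of 3 control clones was sequenced as mESCs and as day 8 EBs. According to the study's methods, libraries were made with a TruSeq RNA kit and read for 51 cycles. Whether counting used strand is not given in the sources used here. Per the labels the authors aligned with TopHat2 2.0.9 and Bowtie2 2.1.0 to NCBIM37 and counted reads per gene with HTSeq 0.5.4. The deposited values are raw counts per Ensembl gene for 37991 identifiers, of which 37205 were found in the NCBIM37 annotation used here. Rows that name no gene were left out of library sizes. Reads with no feature were 6.39% to 7.72%, ambiguous reads 2.01% to 2.41%, and reads aligned to more than 1 place 17.1% to 19.9% in mESCs and 14.5% to 14.7% in EBs. HTSeq sets reads in overlapping exons aside, so genes that share exon bases are undercounted.

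EBs were compared with mESCs with edgeR 4.0.16 (R 4.3.3, limma 3.58.1) by filterByExpr, TMM scaling and the quasi-likelihood F test in its robust form. P values were adjusted by Benjamini-Hochberg over all genes tested. Differences between stages in mutant and control clones were tested by the interaction term over 12 libraries, in which CPM come from 18 libraries. The limits, FDR below 0.1 and absolute log2FC above 0.5, are those of the study's methods. Gene lists are described by counts and medians. The members, lists, motifs and the test of the clone term were chosen with earlier results of these data known. Named genes were the defining and most changed members of each list, the genes the study measured by qPCR, Neil1, Neil2 and Apex1, the 12 largest rises and 12 largest falls at a mean log2 CPM of at least 2 with stages that do not overlap, and the 5 largest interactions of each sign. Some genes that this rule names are not reported here. Exact intervals of ratios and bounds against 3 counts cover counting error only. With up to 3 mESC reads a ratio is given in place of a fitted fold change.

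The labels pair the libraries, since a replicate number is the same clone at both stages. The deviations of a clone from the stage means correlated by r = −0.07, 0.14 and −0.12 over 15799 genes for clones #1, #4 and #7. Clone as a block, DESeq2 1.42.0, other scalings, filters and limits, and each library left out in turn were run as alternatives. Scripts were tested on simulated data. Promoter windows were taken from RefSeq on GRCm38.p6, a different build from that of the counts, and joined by gene symbol. Tables and figures were made with Python 3.11.15, pandas 2.3.3, scipy 1.17.1 and matplotlib 3.10.9. Libraries of the mutant EBs with RA and of Apex1 mutants were not used here.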

Additional observations from a re-analysis of the deposited data

Results flagged for a closer look

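The change from mESCs to EBs differed between mutant and control clones, by the interaction test of edgeR, in 1649 genes for Neil1 and in 1677 genes for Neil2. Both sets of values share the same 6 control libraries. In Neil1 clones the interactions (log2, mutant minus control) with the largest negative values were those of the collagen gene Col1a1 (−6.22), Wnt5a (−5.73), the myelin and growth arrest gene Pmp22 (−5.47), Fgf10 (−4.81) and Msx1 (−4.78). The largest positive ones were those of Napsa (2.80), Inhbb (2.76), Mtap7d3 (2.58), the Notch ligand gene Dll1 (2.41) and Capn3 (2.38). In Neil2 clones the negative values were led by Pmp22 (−5.36), Msx1 (−5.14), Col1a1 (−4.79), Igfbp5 (−4.64) and the cadherin gene Cdh11 (−4.62), and the positive ones by the connexin gene Gjb1 (2.58), E130309D14Rik (2.51), Inhbb (2.51), Pcsk1n (2.51) and Col9a2 (2.47).

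Of these genes, Wnt5a, Pmp22 and Msx1 are among the 12 largest rises of control EBs, and Inhbb and Napsa among the 12 largest falls. These genes were chosen for the size of a value that holds the control change, so that this is no separate result. No cause of these differences was tested.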

How the results depend on the processing

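The number of DE genes between control EBs and mESCs was 6118 as reported, 6062 with DESeq2, 6115 with the size factors of DESeq2 in edgeR, 6043 with library totals only, 6765 with no filter on low counts, 5322 at a mean CPM of at least 1, 5480 at an FDR limit of 0.05 and 6021 with the replicate block. Without 1 library in turn it lay between 5351 and 7184, with 2652 to 3367 raised and 2699 to 3817 lowered genes. No gene was called in opposite directions by the reported and an alternative analysis. Genes changed more than 4-fold numbered 1096, 1687 with no filter, 811 at a mean CPM of at least 1, and between 1173 and 1271 without 1 library. The genes with a different change in Neil1 clones numbered 1054 at an FDR limit of 0.05 and between 1058 and 2226 without 1 library. With library totals only, 496 were higher and 1079 lower, against 691 and 958 as reported. In Neil2 clones they numbered 1004 at an FDR limit of 0.05, 974 with the replicate block and between 865 and 2297 without 1 library. Of 484 genes followed, 379 kept their call in each alternative and 105 lost or gained it in at least 1, and 1 log2FC changed sign past its spread, that of Grb10, to −2.35 without the EB library of clone #1, with up to 1.65 without another library. Beside the results named above, the block changed calls of further listed genes. These were not all of low level, since Gapdh of the glycolysis list was among them. Of the counts of raised and lowered list members, 753 of their alternative values were within 1.5 times and 53 were not. The cause of these shifts was not tested. At 3 clones per stage, genes below about 1 CPM rest on few reads, and the P values measure only the spread between these cultures, 1 per clone and stage.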

Other observations

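Of 16 glycolysis genes, none was raised and 4 were lowered (7 without the mESC library of clone #7), with a median log2FC of −0.44. Over all genes tested, 18.5% were raised and 20.2% lowered, so that the count of 4 lies near the share lowered. The hexokinase gene Hk2, an isoform linked to fast-growing cells, fell from 435, 497 and 437 CPM to 138, 149 and 164 CPM (log2FC −1.60, FDR 2.17e-05), and Pfkp, which encodes platelet-type phosphofructokinase, from 594, 675 and 479 CPM to 168, 168 and 189.8 CPM (log2FC −1.73, FDR 3.84e-05). The glucose transporter gene Slc2a1 measured 1149.6, 1215 and 780.3 CPM and 736, 1002 and 859.7 CPM (log2FC −0.28, FDR 0.262).

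Among 16 stress and immediate early genes, 5 were lowered and 2 raised (0 raised without the EB library of clone #4). Without the mESC library of clone #7, 7 were lowered and 1 raised. Chac1 and Trib3, genes of the response to amino acid shortage and endoplasmic reticulum stress, fell from 25.01, 41.4 and 18.6 CPM to 2.44, 3.28 and 8.29 CPM (log2FC −2.62, FDR 0.00203) and from 37.0, 48.2 and 25.1 CPM to 6.86, 8.86 and 14.1 CPM (log2FC −1.90, FDR 0.0012). The secreted stress gene Gdf15 fell from 8.47, 14.6 and 3.12 CPM to 0.945, 1.92 and 1.11 CPM (log2FC −2.74, FDR 0.00343). For all 3 genes the mESC library of clone #7 was the lowest of the mESCs and still lay above every EB library. Of 18 p53 target genes, 1 was raised and 3 were lowered (1 lowered without the mESC library of clone #1 or the EB library of clone #7), and Cdkn1a was the raised one. Zscan4c, the defining gene of the two-cell-like state that a few ES cells enter, measured 41.1, 45.4 and 68.3 CPM and 30.0, 31.8 and 38.8 CPM (log2FC −0.62, FDR 0.031), and was not called without the mESC library of clone #7 (log2FC −0.36) or the EB library of clone #1 (−0.54) or #4 (−0.57). It belongs to a cluster of near-identical copies, so that its level is uncertain.

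Among the 29 genes in which clone #1 lay more than 2-fold beyond both other control clones at both stages was also Nap1l5, a further imprinted gene that was in no list and was noticed after its values were seen. In CPM by library total it measured 0.223, 1.95 and 1.59 in mESCs, 0.186, 0.674 and 0.575 in EBs and 0.275, 1.96 and 2.06 in EBs + RA, so that few reads stand behind it. X-linked genes of the Xlr family, which are closely related copies, were in the same set. Xlr3c measured 0.670, 4.77 and 5.05 CPM in mESCs.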
